A study of Mus musculus with 6 samples.

Results

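The guanylate-binding proteins (Gbp) and the immunity-related GTPases (Irg) are the 2 large families of GTP-binding proteins that mouse cells make in response to interferons. The 10 genes described here are Gbp2, Gbp3, Gbp4, Gbp7, Gbp8, Tgtp1, Tgtp2, Igtp, Irgm1 and Irgm2, which were taken by symbol from the deposited table of normalized signal and not by their values. They are 10 of the 13564 genes of that table and 10 of the 13691 genes tested here, out of 55487 in the count files.

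The RNA-seq experiment compared the progeny of naive CD4 T cells (CD4N cells) of Foxo1TKO mice (n = 3 libraries) and of Foxo1Ctrl mice (n = 3 libraries). The paper ran it to extend its results on markers of T cell exhaustion in activated cells that lack the transcription factor Foxo1. Foxo1TKO mice are CD4cre Foxo1fl/fl animals that lose Foxo1 from the double-positive stage of thymic differentiation on, so that CD4 and CD8 T cells both lack it before they are ever activated, and Foxo1Ctrl mice carry the same Foxo1fl/fl alleles without Cre. Both were on a C57BL/6 Foxp3-GFP background and, per the methods, were 3 months old unless stated otherwise. All 6 cultures held 50000 sorted CD4N cells per the labels, a number that the methods state differently, and were kept for 4 days with anti-CD3 antibody at 0.1 μg/ml and 250000 splenocytes of C57BL/6 CD3εKO mice, a strain without T cells. No interferon was named among the additions, and neither the labels nor the methods say whether T cells were separated from splenocytes before RNA was extracted. The labels do not say whether libraries of one genotype came from separate mice, so that p-values measure the spread between these libraries, and in bulk RNA fewer cells of a type and less RNA per cell cannot be told apart.

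Interferon gamma binds a receptor of Ifngr1 and Ifngr2 chains and acts through GAS elements, whereas type I interferons act through ISRE elements, which a complex that holds Irf9 binds, and both routes induce Gbp and Irg genes. The proteins gather on vacuoles that hold intracellular parasites and bacteria and help to break them open. Among the Irg proteins, Irgm1, Irgm2 and Igtp (also called Irgm3) are regulators that sit on the membranes of the cell itself and hold the others inactive, while Tgtp1 and Tgtp2 (both called Irgb6) and Iigp1 (Irga6) are effectors that coat the vacuole.

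The genes lie in a few tandem arrays (GRCm38, GENCODE M21). Gbp7 (chr3:142530342-142550149), Gbp3 (chr3:142560026-142573209) and Gbp2 (chr3:142620602-142638008) lie in this order on the plus strand of chromosome 3, with Gbp2b between Gbp3 and Gbp2. Gbp4 (chr5:105115767-105139586) overlaps Gbp8 (chr5:105014150-105139540) on the minus strand of chromosome 5, and the models share 61 exonic bases. Irgm1 (chr11:48861968-48871683), Tgtp1 (chr11:48985327-48994172) and Tgtp2 (chr11:49057194-49064206) form 1 array on chromosome 11, and Igtp (chr11:58199556-58207591) and Irgm2 (chr11:58199618-58222782), which share 162 exonic bases, form another.

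Promoter sequences of RefSeq (GRCm38.p6), from 250 bases before to 50 bases after each annotated start, were held for 8 of the 10 genes and not for Gbp4 and Gbp8. They are shown because both interferon-response elements can be read in them. Letters are written 5′ to 3′ on the strand of the gene, with matches to the ISRE letters (GAAANNGAAA or, on the other strand, TTTCNNTTTC) and to the GAS letters (TTCNNNGAA) in capitals. For Gbp2 and Irgm1, whose ISRE letters lie inside an annotated exon, only 30 bases are shown, and for the others up to 100 bases that hold no annotated exon. The windows of Tgtp1 and Irgm2 lie within the gene models, which have exons further upstream.
Gbp2 (chr3:142620594-142620623, plus strand): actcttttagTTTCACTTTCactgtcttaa
Gbp3 (chr3:142559934-142560025, plus strand): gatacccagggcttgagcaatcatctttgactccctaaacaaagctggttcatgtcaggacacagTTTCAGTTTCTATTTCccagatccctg
Gbp7 (chr3:142530226-142530325, plus strand): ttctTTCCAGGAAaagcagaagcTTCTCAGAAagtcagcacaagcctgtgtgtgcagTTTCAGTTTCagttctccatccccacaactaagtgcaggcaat
Irgm1 (chr11:48871428-48871457, minus strand): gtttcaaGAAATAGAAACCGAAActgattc
Tgtp1 (chr11:48992259-48992356, minus strand): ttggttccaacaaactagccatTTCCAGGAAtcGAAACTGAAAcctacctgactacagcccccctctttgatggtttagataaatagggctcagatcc
Tgtp2 (chr11:49064223-49064322, minus strand): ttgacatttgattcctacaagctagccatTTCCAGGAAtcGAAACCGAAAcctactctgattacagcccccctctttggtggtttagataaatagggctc
Igtp (chr11:58199446-58199545, plus strand): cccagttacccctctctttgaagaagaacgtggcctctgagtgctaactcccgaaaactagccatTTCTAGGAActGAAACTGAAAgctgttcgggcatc
Irgm2 (chr11:58214867-58214966, plus strand): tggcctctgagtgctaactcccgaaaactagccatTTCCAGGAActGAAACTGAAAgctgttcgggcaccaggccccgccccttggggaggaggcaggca

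The ISRE letters were found in the promoters of 8 of the 8 genes held, against 3.99% of the 27025 genes in the table, and the GAS letters in 5 of 8 (Gbp7, Tgtp1, Tgtp2, Igtp and Irgm2), against 9.55%. In Tgtp1, Tgtp2, Igtp and Irgm2 a GAS match was followed after 2 bases by an ISRE match. This joint pattern (TTCNNNGAANNGAAANNGAAA, chosen after the sequences had been seen) was found in the promoters of 5 of the 27025 genes, which were these 4 and their neighbor Gm12185. The copies are related: the promoters of Igtp and Irgm2 share an unbroken run of 61 bases, and those of Tgtp1 and Tgtp2 a run of 27 bases. The letters GTAAACA, which Foxo proteins bind, were found upstream of Gbp3 alone among the 8, against 4.05% of all genes, and a second annotated start of Gbp3 had none of these motifs within 110 to 11 bases upstream. Motifs were searched on both strands over the whole promoter, and a match describes letters and not a bound site.

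**Figure D1:**
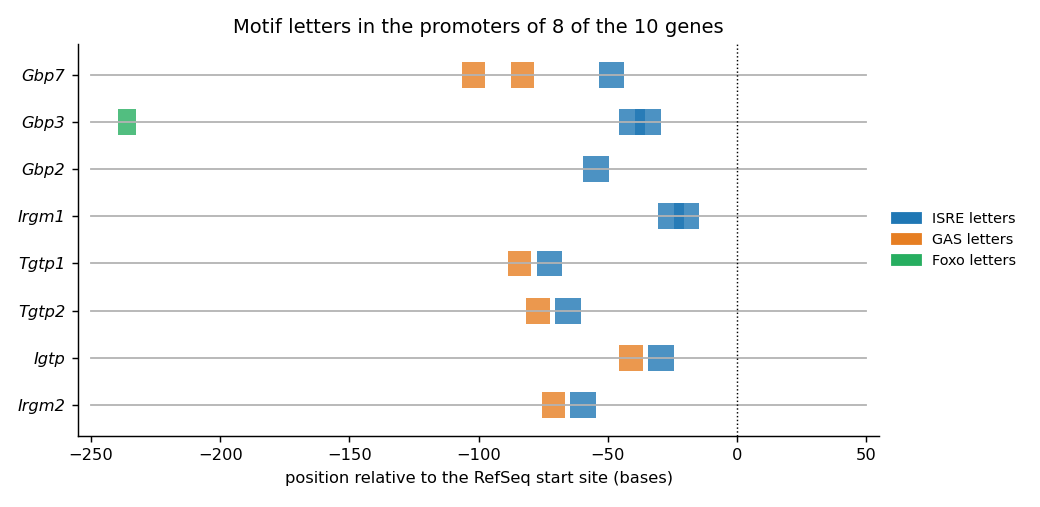
Positions of the ISRE, GAS and Foxo letters in the RefSeq promoters of 8 of the 10 genes, on an axis of bases relative to the annotated start site (dotted line); each grey line is 1 promoter from 250 bases before to 50 bases after the start. The ISRE letters lie within the last 77 bases before the start in all 8 genes, and in Tgtp1, Tgtp2, Igtp and Irgm2 they stand just downstream of the GAS letters.

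Total expected counts per library ran from 14783890 to 19675447. Foxo1 itself had 84.7, 46.1 and 114 normalized counts in the Foxo1TKO libraries against 1516, 2266 and 1584 in the Foxo1Ctrl libraries (log2 fold change −4.45 ± 0.36 SE, adjusted p = 0.000195), which fits the labels. Of 10 T cell markers 1 was called lower (Cd28) and none higher, and their summed normalized counts were 167418 to 182248 in Foxo1TKO and 192991 to 228477 in Foxo1Ctrl libraries. Within each genotype the libraries differed by the GC content of transcripts. Deviations from the genotype mean correlated negatively with it across 10565 genes in Foxo1TKO 2, Foxo1TKO 3 and Foxo1Ctrl 2 (r = −0.26, −0.27 and −0.44). In Foxo1TKO 1, Foxo1Ctrl 1 and Foxo1Ctrl 3 they correlated positively (r = 0.39, 0.36 and 0.27). The difference of each of the 10 genes is therefore also given within each set of 3 libraries. Both signs had to occur in each genotype, because deviations were taken from its mean. These correlations therefore do not compare libraries across genotypes.

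All 10 genes were lower in Foxo1TKO than in Foxo1Ctrl cells, with log2 fold changes from −2.58 (Gbp2) to −0.95 (Gbp8) and a median of −1.86, while the median over all 13691 genes tested was 0.01. Each was called by the quasi-likelihood test of edgeR with p-values adjusted over all genes by Benjamini and Hochberg's method. A call needed an adjusted p below 0.05 and a difference of more than 1.5-fold, and 23.0% of all genes met this rule, 11.8% lower and 11.1% higher in Foxo1TKO cells. In each of the 10 the Foxo1TKO values all lay below the Foxo1Ctrl values, as they did in 21.2% of all genes tested, while 21.5% showed the reverse. All 10 passed the filter on low counts, with at least 10 counts in every library.

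**Figure D2:**
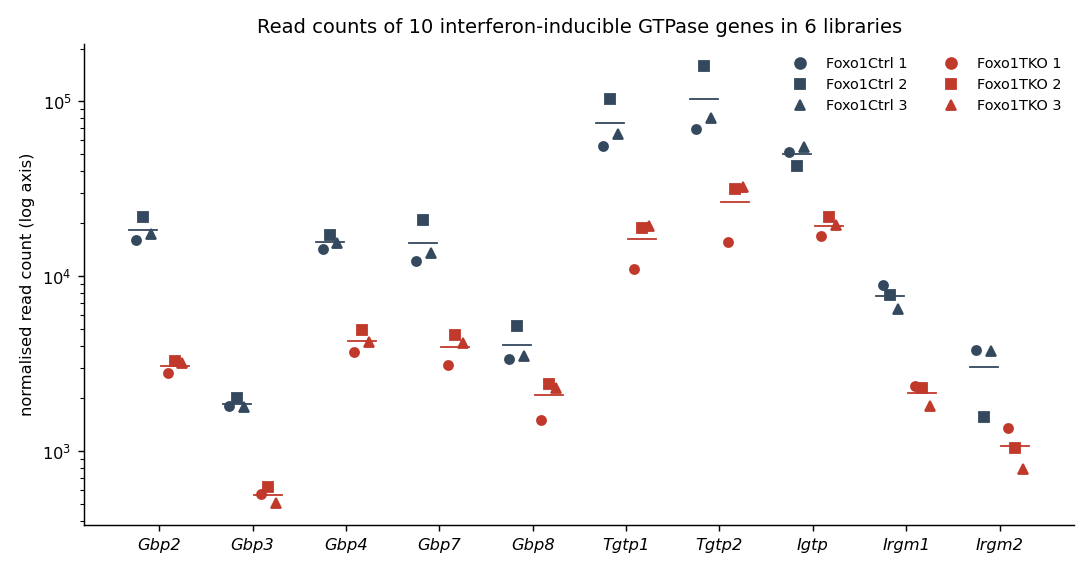
Normalised read counts (log axis) of the 10 genes in the 3 Foxo1Ctrl libraries (dark) and the 3 Foxo1TKO libraries (red); symbols stand for library numbers and lines for means. No Foxo1TKO value reaches a Foxo1Ctrl value of the same gene, and the gap is widest for Gbp2 and narrowest for Irgm2 between Foxo1TKO 1 and Foxo1Ctrl 2.

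Among the 5 Gbp genes of the 10, Gbp2, which restricts intracellular parasites and bacteria, differed most. Its normalized counts were 2786, 3259 and 3187 in Foxo1TKO 1 to 3 and 16071, 21896 and 17428 in Foxo1Ctrl 1 to 3 (log2 fold change −2.58 ± 0.18 SE, adjusted p = 0.000115). The 3 Foxo1TKO libraries stood close together, and the lowest Foxo1Ctrl library was far above them. Gbp7, another vacuole-directed GTPase of the same array, had 3117, 4618 and 4134 counts against 12166, 20817 and 13549 (−1.97 ± 0.25, adjusted p = 0.00142). Gbp3, which lies between them, had far fewer reads, with 564, 619.5 and 503 against 1801, 2001 and 1779 (−1.72 ± 0.15, adjusted p = 0.00028). For both genes Foxo1Ctrl 2 was the highest library, and for Gbp7 it stood apart from the other Foxo1Ctrl libraries.

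The Gbp genes of chromosome 5 among the 10 fell as well. Gbp4 had 3701, 4915 and 4209 normalized counts in Foxo1TKO and 14253, 17290 and 15500 in Foxo1Ctrl libraries (−1.88 ± 0.17, adjusted p = 0.000292). Gbp8 had 1509, 2428 and 2302 against 3373, 5201 and 3513 (−0.95 ± 0.24, adjusted p = 0.0255), the smallest difference of the 10 genes. The groups did not overlap for Gbp8, but its call was lost when Foxo1TKO 1, 2 or 3 was left out (adjusted p = 0.0639, 0.0621 and 0.0601). The log2 ratio of Gbp2 to Gbp8 counts was 0.88, 0.43 and 0.47 in Foxo1TKO and 2.25, 2.07 and 2.31 in Foxo1Ctrl libraries, so that the pair that moved most and least kept separate ratios in every library. The 2 genes were picked for this difference, which is therefore given with no test.

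Among the effectors of the Irg family, Tgtp1 and Tgtp2 had the highest read counts of the 10 genes in Foxo1Ctrl cells. Tgtp1 had 11051, 18800 and 19236 normalized counts in Foxo1TKO and 55705, 103333 and 64927 in Foxo1Ctrl libraries (−2.19 ± 0.31, adjusted p = 0.00217). Tgtp2 had 15635, 31351 and 32451 against 69501, 159468 and 79860 (−1.96 ± 0.40, adjusted p = 0.01). Foxo1TKO 1 was the lowest and Foxo1Ctrl 2 by far the highest library for both genes, and the genotypes did not overlap. Of windows of 50 bases in the transcripts of Tgtp1, 79.4% occur also in Tgtp2, and 85.8% the other way, so that how reads were divided between them is uncertain. With both counted as 1 gene the libraries had 26685, 50152 and 51678 against 125210, 262811 and 144807 counts (−2.05 ± 0.36, adjusted p = 0.00567).

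The 3 regulators of the Irg family fell as well. Irgm1, which is needed for resistance to mycobacteria and for the survival of activated T cells in infected mice, had 2353, 2283 and 1811 normalized counts in Foxo1TKO and 8843, 7762 and 6493 in Foxo1Ctrl libraries (−1.84 ± 0.18, adjusted p = 0.000455). Igtp had 16941, 21764 and 19612 against 51459, 42731 and 55016 (−1.36 ± 0.17, adjusted p = 0.00142). Both genes kept the genotypes well apart, and in Igtp, unlike most of the other genes, Foxo1Ctrl 2 was the lowest Foxo1Ctrl library.

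Irgm2 varied widely among the Foxo1Ctrl libraries, with 1360, 1038 and 793 counts in Foxo1TKO and 3788, 1563 and 3751 in Foxo1Ctrl libraries (−1.51 ± 0.36, adjusted p = 0.0185). Foxo1Ctrl 2 lay close to Foxo1TKO 1, and the call was lost without Foxo1TKO 2 or 3 or without Foxo1Ctrl 1 or 3 (adjusted p from 0.0579 to 0.0793). Igtp and Irgm2 overlap, and 11.8% of the windows of Igtp occur also in Irgm2. Summed as 1 gene they differed by −1.36 ± 0.17 (adjusted p = 0.00142), a value set by Igtp, which has most of the reads.

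The libraries were split into the 3 of positive GC correlation (Foxo1TKO 1 against Foxo1Ctrl 1 and 3) and the 3 of negative correlation (Foxo1TKO 2 and 3 against Foxo1Ctrl 2). In both sets all 10 genes were lower in Foxo1TKO, which was bound to follow because the full set of libraries had no overlap. With so few libraries these are values with no test. The log2 differences in the positive and the negative set were −2.59 and −2.76 for Gbp2, −2.45 and −2.44 for Tgtp1 and −2.26 and −2.32 for Tgtp2. In both Tgtp genes libraries of the same genotype and set lay closer to each other than to the other library of that genotype. Igtp (−1.65 and −1.05) and Irgm2 (−1.47 and −0.77) differed less between genotypes in the negative set, and Gbp8 had −1.19 and −1.14. The values were −1.67 and −1.83 for Gbp3, −2.01 and −1.92 for Gbp4, −2.04 and −2.25 for Gbp7 and −1.70 and −1.92 for Irgm1.

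Within each genotype the libraries ranked alike for most of the 10 genes. Foxo1TKO 1 was the lowest Foxo1TKO library for 7 genes, and Foxo1Ctrl 2 was the highest Foxo1Ctrl library for 7 genes. The exceptions to the second order among the 10 were Igtp, Irgm1 and Irgm2, the regulators of the Irg family. The order was not particular to regulators: outside the 10, Gbp5 had 588, 281 and 619.8 counts in Foxo1Ctrl 1 to 3, with Foxo1Ctrl 2 the lowest. Foxo1Ctrl 2 was also the library of the most negative GC correlation (r = −0.44), and the part of GC content in these orders was not tested.

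Levels of different genes were compared per transcript length as TPM, the deposited unit in which counts are divided by transcript length and scaled to the same total in each library. In Foxo1Ctrl cells the order was Tgtp2 (2495 ± 901 TPM, SD, n = 3), Tgtp1 (1964 ± 486), Igtp (1795 ± 393), Gbp2 (504 ± 30.7), Gbp4 (337 ± 16.1), Irgm1 (250.1 ± 47.7), Gbp7 (216 ± 17.2), Gbp8 (120.4 ± 16.2), Irgm2 (61.1 ± 29.7) and Gbp3 (48.2 ± 2.31). The library ranges of Tgtp2, Tgtp1 and Igtp overlapped from one to the next, as did those of Irgm1 and Gbp7 and those of Irgm2 and Gbp3, while the other neighbors in this order were apart. In Foxo1TKO cells Igtp was first (712 ± 66.6), with Tgtp2 (676 ± 199) and Tgtp1 (456 ± 97.4) overlapping it in turn. Gbp4 (98.7 ± 9.47), Gbp2 (87.8 ± 3.96), Irgm1 (73.1 ± 15.5), Gbp8 (63.6 ± 12.01) and Gbp7 (59.0 ± 7.75) formed a middle group in which each overlapped the next. Irgm2 (22.0 ± 7.75) and Gbp3 (15.2 ± 2.44) were again the lowest and overlapped.

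The 10 genes together made up 1.36 to 1.94% of all counts in Foxo1Ctrl libraries and 0.371 to 0.532% in Foxo1TKO libraries. Their summed level was 6910, 8908 and 7553 TPM in Foxo1Ctrl 1 to 3 and 1898, 2564 and 2331 TPM in Foxo1TKO 1 to 3. Tgtp1 and Tgtp2 accounted for 49.5 to 67.7% of it in Foxo1Ctrl and 41.7 to 55.2% in Foxo1TKO libraries, ranges that overlapped. By mean TPM, Tgtp2 was gene 40 of all genes in Foxo1Ctrl cells and gene 231 in Foxo1TKO cells, and Gbp2 was gene 313 and gene 1815.

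**Figure D3:**
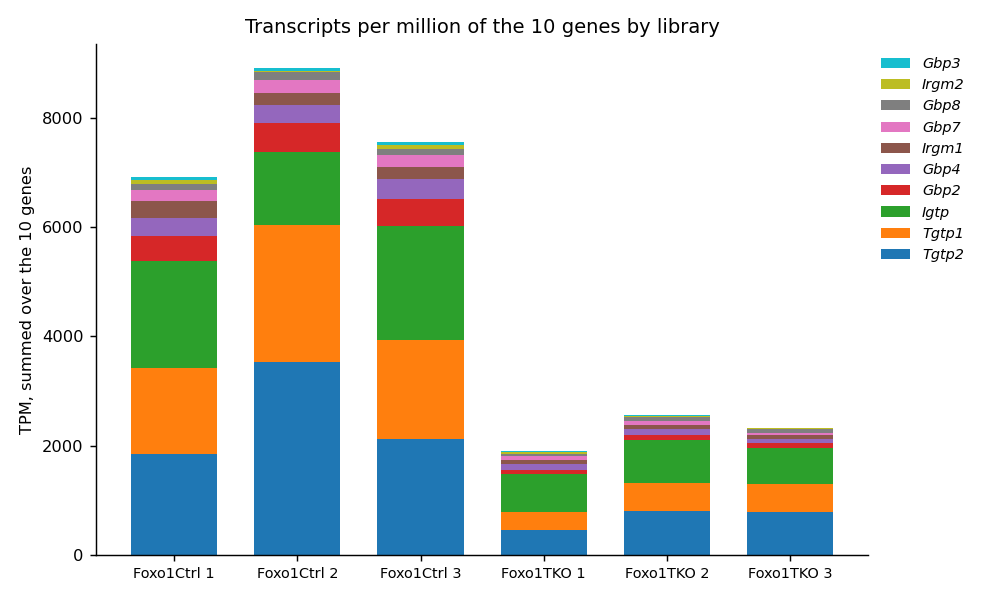
TPM of the 10 genes stacked by library, with the 3 Foxo1Ctrl libraries on the left and the 3 Foxo1TKO libraries on the right. The stacks reach 6910 to 8908 TPM in Foxo1Ctrl and 1898 to 2564 TPM in Foxo1TKO libraries, and Tgtp2, Tgtp1 and Igtp fill most of each.

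The rest of both families was read from a list of 18 further symbols, of which 12 could be tested: 11 were called lower in Foxo1TKO cells and 1 higher, with a median log2 fold change of −1.86. Of all genes tested, 11.8% were called lower and 11.1% higher. On chromosome 3, Gbp5, which promotes inflammasome assembly, had 210, 154 and 171 normalized counts against 588, 281 and 619.8 (−1.47 ± 0.32, adjusted p = 0.013), and its call was lost without Foxo1TKO 2 (adjusted p = 0.0686). On chromosome 5, Gbp9 (−1.63 ± 0.17) and Gbp10 (−1.44 ± 0.28) fell like their neighbor Gbp4, and Gbp11, an annotated pseudogene of low counts, fell from 138, 138 and 115 to 6.71, 6.09 and 7.45 (−4.09 ± 0.29). Gbp6 was called by a narrow margin (−0.72 ± 0.21, adjusted p = 0.0423), and its call was lost whichever library was left out. The 6 Gbp genes of chromosome 5 share sequence, Gbp6 and Gbp10 the most, and summed as 1 gene they differed by −1.28 ± 0.21 (adjusted p = 0.00434).

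Among other Irg genes, Iigp1, a vacuole-coating effector, had 3508, 5240 and 5094 normalized counts in Foxo1TKO and 12094, 16670 and 16005 in Foxo1Ctrl libraries (−1.69 ± 0.21, adjusted p = 0.00133). The genotypes were well apart. Its neighbors on chromosome 18, Gm4951 (−4.35 ± 0.37) and F830016B08Rik (−3.22 ± 0.35), differed more than any of the 10 genes: Gm4951 had 83.0, 149 and 174.5 counts against 1938, 3876 and 2485. Gm12250 (Irgb10), an effector upstream of Igtp that GENCODE types as a pseudogene, fell by 2.03 ± 0.15 on the log2 scale, Gm12185, beside Tgtp1, by 2.09 ± 0.25, and Gvin1, a member of the very large interferon-inducible GTPases, by 2.77 ± 0.14. Of the windows of Gvin1, 99.2% occur also in other genes, so that its counts are uncertain. Irgq, whose product is not known as an interferon effector, was the 1 gene called higher, at 33.5, 45.2 and 87.3 against 20.1, 21.6 and 19.2 counts (1.40 ± 0.42, adjusted p = 0.0444), and its call was lost without Foxo1TKO 2 or 3 or any 1 Foxo1Ctrl library and with limma-voom (adjusted p = 0.0767). Gbp2b, Gm5431 and Irgc1 were under the count minimum, with at most 19, 12 and 5 counts in a library, and 3 symbols (Irgc, Gvin2 and Gvin3) were not matched.

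**Figure D4:**
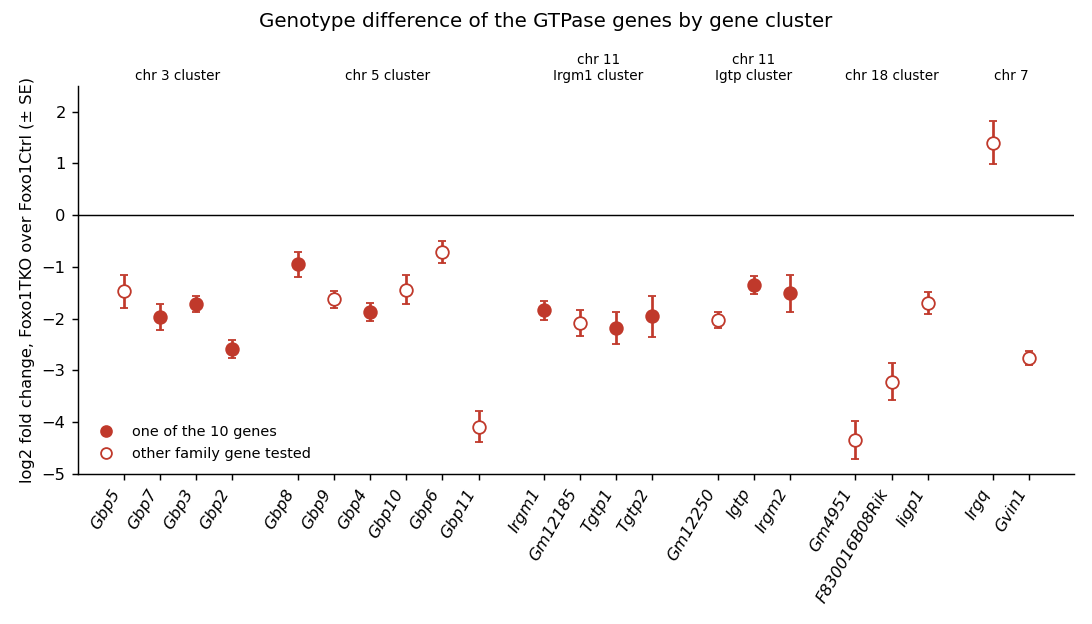
Log2 fold change of Foxo1TKO over Foxo1Ctrl (± SE) for the 10 genes (filled) and the 12 other family genes tested (open), ordered by position within each gene cluster. Every gene of the clusters on chromosomes 3, 5, 11 and 18 lies below 0, from −0.72 (Gbp6) to −4.35 (Gm4951). On chromosome 7, Gvin1 lies below 0 (−2.77) and Irgq above 0.

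Next, the genes that carry the interferon signal were examined. For comparison with the counts here and below, 11.8% of all genes tested were called lower and 11.1% higher. Genes named here and below that were not called were chosen after their values had been seen. Of 14 ligand and receptor genes 6 could be tested, 1 was called lower and none higher. This was Ifngr1, the ligand-binding chain of the interferon gamma receptor, with 4552, 4440 and 3832 normalized counts in Foxo1TKO and 53148, 43129 and 47588 in Foxo1Ctrl libraries (−3.49 ± 0.17, adjusted p = 3.42e-05). Its genotypes were separated by a wide gap. The second chain, Ifngr2, had a log2 fold change of 0.30 ± 0.30 (adjusted p = 0.52), and the type I receptor chains Ifnar1 and Ifnar2 had −0.98 ± 0.35 (adjusted p = 0.0801) and −0.07 ± 0.19 (adjusted p = 0.832). Ifnar1 was called lower under 6 of 17 alternatives, among them the DESeq2 Wald test (adjusted p = 0.0297), effective lengths as an offset (adjusted p = 0.0418) and leaving out Foxo1Ctrl 2 (adjusted p = 0.0108). Ifng, which encodes interferon gamma, had 158, 73.1 and 66.0 counts against 39.0, 59.0 and 54.8 (0.95 ± 0.40, adjusted p = 0.126), so that no Foxo1TKO value lay below a Foxo1Ctrl value but the difference did not pass the test. Ifnb1, the 4 Ifna genes listed and the Ifnl genes were at 0 counts in all 6 libraries.

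Of 10 signal transducers tested, 1 was called lower and 1 higher. Irf9, the DNA-binding part of the type I complex, was lower at 2182, 2715 and 2313 against 5181, 4608 and 4764 (−1.01 ± 0.15, adjusted p = 0.00241). Irf8, a partner of other interferon regulatory factors, was higher at 8626, 6403 and 6035 against 1172, 782.5 and 1901 (2.45 ± 0.33, adjusted p = 0.00172). Irf1, which binds the promoters of Gbp genes, was not called (−0.34 ± 0.14, adjusted p = 0.135). Stat2 was not called either (−1.09 ± 0.37, adjusted p = 0.0689), a result that held under 8 of 17 alternatives. It was called lower by, among others, the DESeq2 Wald test (adjusted p = 0.021) and edgeR with effective lengths as an offset (adjusted p = 0.0275). The DESeq2 Wald test also called Irf7 lower (adjusted p = 0.036) and Stat3 higher (adjusted p = 0.032), which the main test did not. Irf2 missed the call by the fold minimum alone (−0.48 ± 0.14, adjusted p = 0.0364), a result that held under 13 of 17 alternatives. It was called lower by edgeR with effective lengths as an offset (−0.69, adjusted p = 0.0079).

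Of the 9 inhibitors of the signal, all tested, 1 was called in each direction. Socs3, which blocks Janus kinases at cytokine receptors, had 15.9, 6.96 and 6.39 counts against 604, 297 and 444 (−5.37 ± 0.44, adjusted p = 0.00021). Ptpn6, a phosphatase that acts on Janus kinases, was higher at 8047, 6383 and 5689 against 3222, 2253 and 3665 (1.14 ± 0.22, adjusted p = 0.00858). Both kept the genotypes apart. Socs1, the best known inhibitor of the interferon gamma receptor, overlapped between genotypes (0.34 ± 0.69, adjusted p = 0.767).

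Of 16 other targets of interferon gamma listed 12 could be tested. Among these 2 were called lower and none higher, against 11.8% and 11.1% of all genes tested. Their median log2 fold change was −0.13. The 2 were Nlrc5, the activator of class I antigen presentation genes (−0.69 ± 0.15, adjusted p = 0.0129), and Parp14 (−0.82 ± 0.15, adjusted p = 0.00632), and the call of Nlrc5 was lost without Foxo1TKO 2, Foxo1TKO 3 or Foxo1Ctrl 3. The immunoproteasome gene Psmb8 had 24523, 28172 and 30623 counts against 26307, 30748 and 26382 (0.00 ± 0.16, adjusted p = 0.993), and the peptide transporter gene Tap1 had a log2 fold change of −0.20 ± 0.35 (adjusted p = 0.72).

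Targets more typical of type I interferon fell in part. Of 25 tested (26 listed), 11 were called lower and none higher, with a median of −1.15. In 18 the Foxo1TKO values all lay below the Foxo1Ctrl values, as they did in 21.2% of all genes tested. Ifit3, an antiviral gene of the Ifit family, had 79.6, 132 and 50.0 counts against 693, 805 and 478.5 (−2.90 ± 0.38, adjusted p = 0.00151). Rtp4 (−2.19 ± 0.25), Ifit1 (−1.81 ± 0.28) and Ifi27l2a (−1.59 ± 0.18) followed among the genes with at least 100 normalized counts on average. Isg15 was not called (−0.79 ± 0.25, adjusted p = 0.057), but it was called lower by the DESeq2 Wald test (adjusted p = 0.026) and without Foxo1Ctrl 3 (adjusted p = 0.04).

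**Figure D5:**
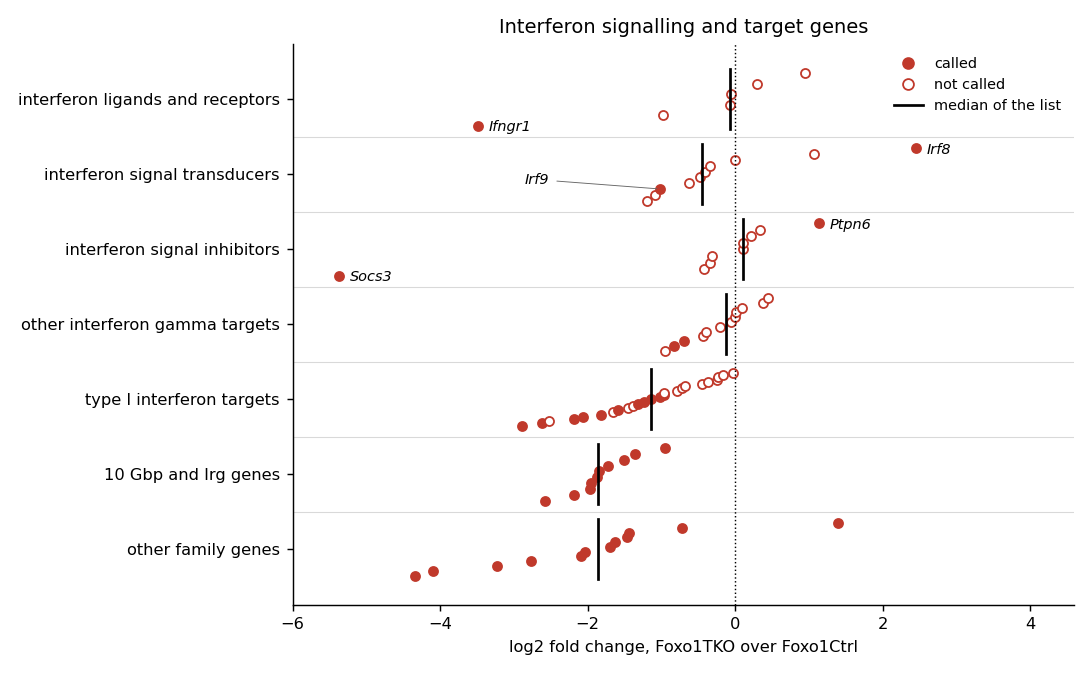
Log2 fold change of Foxo1TKO over Foxo1Ctrl for each tested gene of 7 lists (filled, called; open, not called), with the median of each list as a black line. The medians of the 10 GTPase genes and of the other family genes are −1.86, that of the type I interferon targets is −1.15, and that of the other interferon gamma targets is −0.13.

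The machinery with which these GTPases work was read next, beside the 23.0% of all genes tested that were called (11.8% lower and 11.1% higher). Gbp and Irg proteins are loaded onto vacuoles with the help of the ubiquitin-like conjugation system of autophagy. Of 14 genes listed for vacuole targeting, not all of them part of this system, 1 was called lower, Gabarapl2 (−0.79 ± 0.14, adjusted p = 0.0062). Higher calls went to 2, Atg7 (1.63 ± 0.28, adjusted p = 0.00493) and Gabarapl1 (0.81 ± 0.15, adjusted p = 0.0071), and the median of the 14 was −0.11. Of 7 inflammasome genes tested 3 were called lower: Casp4, which senses lipopolysaccharide that Gbp proteins expose (−1.28 ± 0.27, adjusted p = 0.0117), Casp1 (−0.97 ± 0.28, adjusted p = 0.0392) and the cytokine gene Il18 (−2.998 ± 0.44, adjusted p = 0.00257), which is below the level set for naming. The call of Casp1 was lost when any library other than Foxo1Ctrl 3 was left out. It was also lost with limma-voom (adjusted p = 0.0573) and on the deposited signal (adjusted p = 0.0685 and 0.0628 with a pseudocount of 1 and 10). Aim2 overlapped between genotypes and was not called (−0.09 ± 0.23, adjusted p = 0.81), which held under 13 of 17 alternatives. With effective lengths as an offset, edgeR called it lower (−1.60, adjusted p = 0.00542).

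Among the 9202 genes outside the 10 that averaged 100 or more normalized counts, the 5 whose values most closely followed the mean of the standardized log2 values of the 10 were Tbc1d15, Ifi214, Trim34a, Phf11a and Ssbp2 (Pearson r from 0.998 to 0.9997 over 6 libraries). Tbc1d15, a Rab GTPase-activating protein, had 2224, 2663 and 2487 counts against 5693, 6240 and 5623. Ifi214, an interferon-inducible gene of the Ifi200 family, had 119, 239 and 198 against 3490, 5027 and 3461. This likeness is a description over 6 libraries in 2 groups, in which any gene with a steady difference between genotypes scores high: 646 of the 9202 genes had a correlation above 0.95.

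Calls were also counted by the letters in promoters. Of 373 tested genes with the ISRE letters, 78 (20.9%) were called lower and 35 (9.38%) higher, and 8 of these 78 were among the 10 genes. Among all 9511 tested genes with a promoter in the table, 1117 (11.7%) were called lower and 1180 (12.4%) higher. For the GAS letters 111 of 794 genes were called lower and 100 (12.6%) higher, and for the Foxo letters 57 (18.6%) of 306 were called lower and 35 (11.4%) higher. These counts are descriptions, without a test.

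Splenocytes were a part of each culture, and some of their markers moved with genotype. Summed counts are given over the markers that could be tested. Of 8 B cell markers tested (10 listed) 5 were called lower, among them Ighm (−1.61 ± 0.22, adjusted p = 0.00173) and Cd79b (−1.92 ± 0.29, adjusted p = 0.00283), and the summed normalized counts ran from 5227 to 6267 in Foxo1TKO and from 13095 to 21743 in Foxo1Ctrl libraries, almost all of them Ighm. The B cell gene Ms4a1, named below the level set for naming, had 15.9, 31.3 and 24.5 counts against 110, 119 and 111.5. Macrophage markers summed to 75.4 to 95.8 and 55.7 to 102 counts, with none of 2 tested called and C1qa and C1qc at 0. Of 8 neutrophil markers 1 could be tested, Mmp9, which is also below that level and had 11.7, 3.48 and 2.13 against 31.9, 45.4 and 43.2 counts. It was called lower, a call that was lost without Foxo1TKO 2 (adjusted p = 0.0621). Other neutrophil markers were listed the other way, with Ngp at 37, 32 and 0 counts and S100a8 at 14, 10 and 0 counts in Foxo1TKO libraries and both at 0 in Foxo1Ctrl libraries, and Retnlg at 0 in all. The TPM of the whole list summed to 0.14 to 7.7 in Foxo1TKO and 1.04 to 1.47 in Foxo1Ctrl libraries. Of 6 NK cell markers tested, 2 that T cells can also express, Klrd1 (−2.37 ± 0.23, adjusted p = 0.000399) and Klrk1 (−1.06 ± 0.21, adjusted p = 0.00836), were called lower, with sums of 2031 to 3681 and 6412 to 9210 counts and Klra8 at 0.

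Dendritic cell markers summed to 1296 to 1511 and 1042 to 1094 counts, with 2 of 5 tested called higher and Cd209a at 0. The called genes were Itgax, at 347, 408 and 481 against 1.18, 0 and 0.961 counts, and Ccr9 (2.34 ± 0.47, adjusted p = 0.00944), which is below the level set for naming. Bst2, also listed as a type I interferon target, held the largest part of the sum and was not called (−0.16 ± 0.15, adjusted p = 0.477). Zbtb46 (−0.48 ± 0.29, adjusted p = 0.27) and Xcr1 (0.44 ± 0.51, adjusted p = 0.585) were not called either. Flt3, Clec9a, Siglech and Batf3 were under the count minimum. Erythroid markers summed to 216 to 375.5 and 288 to 411.5 counts, with none of 3 called. The 1 CD8 marker tested, Cd8b1, had 93.9, 116 and 90.5 counts against 143, 159 and 158, with no overlap. It was not called (−0.61 ± 0.22, adjusted p = 0.0856), but the DESeq2 Wald test called it lower (adjusted p = 0.0483). The part of splenocyte RNA in the differences of the GTPase genes was not tested.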

How the data were processed

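Each RNA-seq library took its genotype and number from its title. The authors deposited RSEM expected counts and TPM per gene and library, made with STAR 2.7.6a on GRCm38 (multi-mapping reads kept up to 10 places, with adjusted counts) and RSEM 1.3.1. Strandedness and the library kit are not given in the sources used here. The authors also deposited a normalized signal, the count scaled by a DESeq2 size factor and by relative effective length, which named the 10 genes and served as an alternative.

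Expected counts, of which 9.48% were not whole, were rounded. Genes reaching 10 counts in 3 or more libraries entered edgeR 4.0.16 in R 4.3.3 (TMM, glmQLFit, glmQLFTest, prior count 1, genotype as the only term), and p-values were adjusted over all of them by Benjamini and Hochberg's method. Calls needed an adjusted p below 0.05 and a difference of more than 1.5-fold. Normalized counts are counts scaled to a common TMM library size. Standard errors (SE) are the log2 fold change over the square root of F. DESeq2 1.42.0 and limma 3.58.1 were alternatives. The fit was tested on simulated data. Positions and shared windows of 50 bases came from GENCODE M21, and promoters from RefSeq.

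The genes and lists were chosen with earlier results of these data known. Named were the 10 genes in every library, every family gene tested, called genes of the 3 interferon signalling lists, up to 4 called genes of each other list with the largest change and a mean of at least 100 normalized counts, Foxo1, and the 5 genes of most similar pattern. Exceptions are stated. Some genes are not reported here.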

Additional observations from a re-analysis of the deposited data

How the results depend on the processing

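The log2 fold changes of the 10 genes were below 0 under every alternative run, and all 10 were called under the DESeq2 Wald test, limma-voom, DESeq2 size factors, effective lengths as an offset, other filters on low counts, limma on the deposited signal with a pseudocount of 1 or 10, no fold minimum and, added after the data were seen, an offset for GC content. Leaving out 1 library at a time left 8 to 10 of the 10 called, and the calls lost were those of Gbp8 and Irgm2 given above. The calls of Irgq (1.31, adjusted p = 0.0632 with the block; 1.38, adjusted p = 0.0713 with the GC offset), and of Gbp6 (−0.73, adjusted p = 0.0508) and Irgq (1.298, adjusted p = 0.0544) on the deposited signal with a pseudocount of 1, were lost. All 10 remained without overlap with DESeq2 size factors, with effective lengths as an offset, on the deposited signal and with the GC offset. Leaving out libraries or splitting them by GC correlation could not have brought an overlap, because the full set of libraries had none. The whole table had 3144 called genes, and between 1590 and 3165 when 1 library was left out, the lowest without Foxo1TKO 2 and 1848 without Foxo1Ctrl 1. Counts summed over genes that share sequence moved Gbp4 to −1.28 and Gbp8 to −1.28, the value of their joint gene. Libraries of the same number did not deviate together in every pair (r = 0.69, 0.41 and −0.30). Libraries with the same sign of GC correlation had a positive r and the others a negative r. These values therefore cannot show whether cultures of the same number came from the same experiment. The paper compared its stained cultures of this kind in pairs, by experiment. The main fit did not take the numbers to pair the libraries, and a replicate block was run as an alternative. With the replicate block all 10 genes were called, and 3318 of all genes.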
